A study of Mus musculus with 6 samples.

Results

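Open chromatin was profiled at 3236 regions that lie within 2 kb of a start or end of 2 or more different RefSeq protein-coding genes, out of 74686 regions in the deposited count table. Distance was measured from the nearest base of a region to either end of a gene, so membership rests on position alone. The rule itself was set with earlier results of these data known. A further 15140 regions lie within 2 kb of a boundary of a single gene, and 56310 have no gene boundary that near. Profiled were OT1 CD8 T cells, which bear a transgenic receptor for a peptide of ovalbumin, and they were sorted as CD8+ CD45.1+ cells (CD45.1 is a congenic marker) out of B16-OVA-GP61 tumors grown in mice. B16-OVA-GP61 derives from the mouse melanoma B16 and expresses ovalbumin and the viral epitope GP61. The 6 libraries form 2 groups of 3: tumors with no SMARTA cells, called the SMARTA-free group here, and tumors with SMARTA cells, which are CD4 T cells with a transgenic receptor for GP61. All 6 share the tumor line, the OT1 cells and the sort. The sources used here do not give strain, age, cell numbers or times. No label ties the replicates to separate animals, so the p-values reflect variation among libraries that may be technical.

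ATAC-seq reads where a transposase can insert adapters into DNA that is not wrapped in nucleosomes. Active promoters are kept free of nucleosomes just upstream of the transcription start, and mammalian genes often stand in pairs that are transcribed away from each other from a common open stretch. Such divergent pairs are known for housekeeping roles such as DNA repair, chaperones and mitochondrial translation, and their promoters are often rich in CpG. Where 3′ ends face each other no annotated start is near, so regions there lie away from the annotated starts of both genes.

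The shared-boundary regions touch 4970 different genes of 21900, in 2741 sets of genes. Exactly 2 genes lie near 3099 regions and 3 or more near 137. A boundary falls inside 1856 of the regions, and boundaries of 2 or more genes inside 704, while 1412 regions lie wholly within a gene. Of the regions 3196 share a length of 401 bases. The RefSeq promoter table (GRCm38.p6, a patch release of the deposited coordinates' build) gives the strand of 17492 protein-coding genes, which sorted the regions by how the genes face each other. At 1207 regions the 5′ ends of 2 or more genes lie within 2 kb (start-start), and at 1155 of these the genes run on opposite strands. At 813 regions a single 5′ end meets a 3′ end (start-end), at 349 only 3′ ends meet (end-end), and for 867 regions the strand of a gene is missing from the table (strand unknown).

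The promoter windows of these pairs are shown first, because start-start regions were the most accessible class. Each window is RefSeq sequence of GRCm38.p6, 5′ to 3′ on the gene's own strand, from 250 bases before to 50 bases after the start. Capitals mark matches, on either strand, to any of the motifs searched: the TATA box (TATAAA), the CCAAT box (CCAAT), the GC box (GGGCGG), the ETS motif (CCGGAAG), the cyclic AMP response element (TGACGTCA), the YY1 motif (AAGATGGC), the AP-1 motif (TGANTCA), the NFAT motif (GGAAAAA) and the NF-kB motif. No motif contains another, though neighbouring matches can run together. Myo9b (chr8:71272464-71272763, plus strand) and Haus8 (chr8:71272541-71272840, minus strand) are read outwards from a shared stretch, so the windows overlap and repeat much of the same DNA on opposite strands. Dnaja1 (chr4:40722218-40722517, plus strand) stands for the chaperones, and 1700056E22Rik (chr1:184033949-184034248, minus strand) with Dusp10 (chr1:184034131-184034430, plus strand) for the most accessible pairs.
Myo9b: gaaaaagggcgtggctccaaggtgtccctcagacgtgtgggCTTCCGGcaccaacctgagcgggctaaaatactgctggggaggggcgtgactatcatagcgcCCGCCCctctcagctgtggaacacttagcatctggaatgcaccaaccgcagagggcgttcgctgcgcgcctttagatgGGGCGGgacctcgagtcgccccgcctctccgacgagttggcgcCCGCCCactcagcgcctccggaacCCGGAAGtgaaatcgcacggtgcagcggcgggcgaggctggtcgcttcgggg
Haus8: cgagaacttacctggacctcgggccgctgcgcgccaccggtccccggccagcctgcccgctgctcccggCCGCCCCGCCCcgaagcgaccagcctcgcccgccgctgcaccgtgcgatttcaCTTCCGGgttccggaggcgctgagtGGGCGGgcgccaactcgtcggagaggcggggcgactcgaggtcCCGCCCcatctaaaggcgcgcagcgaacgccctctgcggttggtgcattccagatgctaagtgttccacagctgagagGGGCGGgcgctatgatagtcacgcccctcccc
Dnaja1: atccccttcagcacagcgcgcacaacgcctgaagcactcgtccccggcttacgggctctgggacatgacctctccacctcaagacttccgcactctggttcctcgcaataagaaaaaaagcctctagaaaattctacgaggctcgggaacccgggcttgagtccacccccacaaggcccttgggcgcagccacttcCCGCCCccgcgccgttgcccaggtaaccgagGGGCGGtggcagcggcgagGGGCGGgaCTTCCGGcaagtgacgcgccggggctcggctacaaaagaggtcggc
1700056E22Rik: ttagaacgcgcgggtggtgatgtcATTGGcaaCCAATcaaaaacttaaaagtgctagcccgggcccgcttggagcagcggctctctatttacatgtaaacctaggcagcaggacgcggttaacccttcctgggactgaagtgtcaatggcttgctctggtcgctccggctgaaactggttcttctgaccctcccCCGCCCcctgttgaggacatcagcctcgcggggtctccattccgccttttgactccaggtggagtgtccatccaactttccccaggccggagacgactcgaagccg
Dusp10: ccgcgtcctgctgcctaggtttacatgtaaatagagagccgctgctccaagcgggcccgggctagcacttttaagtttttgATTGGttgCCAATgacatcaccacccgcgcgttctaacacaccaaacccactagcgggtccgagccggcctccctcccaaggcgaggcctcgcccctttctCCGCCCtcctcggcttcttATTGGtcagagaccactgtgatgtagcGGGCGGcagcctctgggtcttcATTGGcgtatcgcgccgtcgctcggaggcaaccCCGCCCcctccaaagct

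The next windows lie at immune genes. Nr4a2 (chr2:57123954-57124253, minus strand) was taken by the same rule as the windows above, and Ccl3 (chr11:83649329-83649628, minus strand), Ltb4r1 (chr14:55765712-55766011, plus strand) and Ctla2a (chr13:60936576-60936875, minus strand) were added after their values were seen, since they are the promoter windows of an effector chemokine, a leukotriene receptor and a T cell protease inhibitor whose regions passed the test.
Nr4a2: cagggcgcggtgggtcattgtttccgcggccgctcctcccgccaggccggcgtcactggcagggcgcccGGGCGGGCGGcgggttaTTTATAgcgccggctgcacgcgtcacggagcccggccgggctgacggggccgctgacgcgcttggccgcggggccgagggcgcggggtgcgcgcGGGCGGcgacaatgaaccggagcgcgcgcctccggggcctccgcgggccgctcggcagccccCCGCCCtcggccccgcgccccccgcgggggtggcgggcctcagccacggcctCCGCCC
Ccl3: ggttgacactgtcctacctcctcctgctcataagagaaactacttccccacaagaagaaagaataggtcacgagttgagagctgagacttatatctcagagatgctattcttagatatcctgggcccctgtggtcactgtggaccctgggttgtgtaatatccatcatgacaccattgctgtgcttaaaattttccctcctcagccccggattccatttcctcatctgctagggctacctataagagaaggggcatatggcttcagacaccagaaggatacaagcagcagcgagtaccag
Ltb4r1: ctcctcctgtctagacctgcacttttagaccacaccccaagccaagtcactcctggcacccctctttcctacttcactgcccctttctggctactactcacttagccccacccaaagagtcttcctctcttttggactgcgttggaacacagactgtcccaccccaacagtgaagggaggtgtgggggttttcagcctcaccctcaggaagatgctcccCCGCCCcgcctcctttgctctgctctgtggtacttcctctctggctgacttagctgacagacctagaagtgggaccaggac
Ctla2a: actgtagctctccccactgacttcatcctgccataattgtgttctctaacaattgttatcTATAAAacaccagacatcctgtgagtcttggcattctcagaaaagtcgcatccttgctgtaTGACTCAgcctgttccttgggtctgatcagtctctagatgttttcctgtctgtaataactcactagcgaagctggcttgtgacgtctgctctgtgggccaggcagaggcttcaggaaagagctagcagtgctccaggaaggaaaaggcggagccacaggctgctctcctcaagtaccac

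These windows differ in base composition as well as in motifs. The Nr4a2 window has a GC content of 81.7% with 52 CpG dinucleotides, and those of Myo9b and Haus8 have 65.7% with 30 and 71.0% with 37. The Ccl3 window has 48.0% with 3 CpG dinucleotides and no match to any motif searched, and those of Ltb4r1 and Ctla2a have 3 and 4. Of the windows printed, the one of Ctla2a alone holds an AP-1 match.

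Across the genome, promoters of genes at shared boundaries were richer in GC than those of all genes. Promoters at open starts of a single gene were not measured apart. The 2000 genes with a start at a start-start region had a median GC content of 61.7% (quartiles 55.7% to 67.3%) and 23 CpG dinucleotides per window, against 56.3% (47.7% to 64.3%) and 13 for all 17492 genes. Genes at start-end regions lay between, with 59.7% and 18 for 720 genes. A window in these sets need not overlap the region, and that of Aptx lies 18473 bases from its gene boundary. The 2248 genes whose window does overlap a shared-boundary region had 62.0% and 23. The GC box was in 63.2% of windows at start-start regions and in 46.3% of all windows, the ETS motif in 24.6% and 11.9%, the YY1 motif in 6.65% and 3.21%, and the cyclic AMP response element in 3.50% and 2.33%. The TATA box was rarer, in 5.20% against 13.3%, as was the AP-1 motif, in 3.75% against 7.03%. The CCAAT box was in 39.7% and 39.2%, the NFAT motif in 6.05% and 7.44% and the NF-kB motif in 0.350% and 0.389%. A match is a run of letters and not a bound site, and windows of paired genes share bases, so these shares carry no test.

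Accessibility was highest where starts meet. The median over regions of mean log2 CPM (CPM scales counts to a common library total; the prior count was 2) was 5.72 at start-start regions (quartiles 4.58 to 6.28), 4.87 at start-end regions and 1.83 at end-end regions (1.08 to 2.87). For all shared boundaries it was 4.98, for regions near a single gene boundary 3.73 and for those near none 1.74. With regions split into 5 classes of equal size by accessibility, 62.4% of the shared-boundary regions fell in the highest class, against 44.9% of those near a single gene and 10.9% of the rest. Within the start-start class the median level was 4.03 with 0 starts inside the region itself (338 regions), 5.83 with 1 (384) and 5.93 with 2 (485).

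Levels were also set against the distance between paired starts. For genes on opposite strands, median log2 CPM was 5.56 at 420 regions whose genes overlap at their 5′ ends, 5.88 at 507 with starts up to 250 bases apart, 6.01 at 137 with more than 250 and up to 1000 bases between them and 5.37 at 91 with more than 1000. In the authors' own peak lists, called per library, 93.2% to 99.01% of start-start regions overlapped a peak, depending on the library, against 88.0% to 95.2% of all shared-boundary regions, 81.5% to 93.9% of those near a single gene and 72.2% to 87.4% of end-end regions. All 6 libraries had a peak at 2686 of the 3236 regions (83.0%).

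Depth allowed a test at each region. The libraries held 16595779 to 27182809 counts in the regions, with a median of 62 to 114 per region, and the biological coefficient of variation was 18.0%. All 6 markers of CD8 T cells in the list used had a region at their boundaries, with a summed level of 660 to 673 CPM without and 653 to 703 CPM with SMARTA cells. Of 7 melanoma markers 3 had a region, Mlana, Pmel and Mitf, and Tyrp1, Tyr, Dct and Sox10 had none. The summed level of Mlana, Pmel and Mitf was 155 to 172 CPM without and 175 to 191 CPM with SMARTA cells. Each library with SMARTA cells was above all without, in a sum that rests on 3 regions. For scale, regions of the highest accessibility class had median log2 folds with against without SMARTA cells of 0.14 at shared boundaries. These medians were 0.12 near a single gene and 0.09 near none. For the other cell types, 5 of 7 myeloid markers had regions (172 to 178 CPM without, 169 to 186 with; none at Lyz2 and Adgre1), 3 of 5 B cell markers (43.7 to 49.5, 46.8 to 52.8), 3 of 4 markers of CD4 and regulatory T cells (96.0 to 107, 102 to 117; none at Foxp3), 2 of 4 NK cell markers (38.2 to 43.3, 23.02 to 42.2) and 4 of 5 of fibroblasts and endothelium (28.5 to 31.2, 28.0 to 29.3). Whether tumor DNA had a part in the results below was not tested. Replicate 2 with SMARTA cells stands apart from its group in the share of counts at shared boundaries, and counts without it are given with the calls. This library was the shallowest, with 16595779 counts and a median of 62 per region. It also had the fewest peaks (65020) and gave the low end of each range of peak overlap above.

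Each library with SMARTA cells had a larger share of its counts at shared boundaries than any without. This share was 12.46%, 12.45% and 12.43% in the libraries without SMARTA cells and 12.72%, 13.89% and 13.11% with them. The groups do not overlap, the spread was wider with SMARTA cells, and replicate 2 of that group was the highest. The difference was 0.792 percentage points (12.4% ± 0.0181 against 13.2% ± 0.598, SD, n = 3 each; exact two-sided permutation p = 0.10, the smallest that 3 against 3 allows; 0.18 adjusted over 9 such measures), and it was 0.465 without replicate 2 with SMARTA cells. Start-start regions held most of it, with 6.37%, 6.43% and 6.40% without and 6.61%, 7.22% and 6.82% with SMARTA cells (exact p = 0.10). At end-end regions the shares were 0.257%, 0.245% and 0.249% without and 0.249%, 0.275% and 0.252% with, and the groups overlap (exact p = 0.60). Regions near a single gene boundary had 40.97% ± 0.0635 against 42.8% ± 1.21 (exact p = 0.10). Set against those, counts at shared boundaries came to 0.304 ± 0.000573 and 0.309 ± 0.00634 per count, which overlap between groups (exact p = 0.40). Fewer cells of a type and less accessibility per cell cannot be told apart in these bulk samples.

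**Figure D1:**
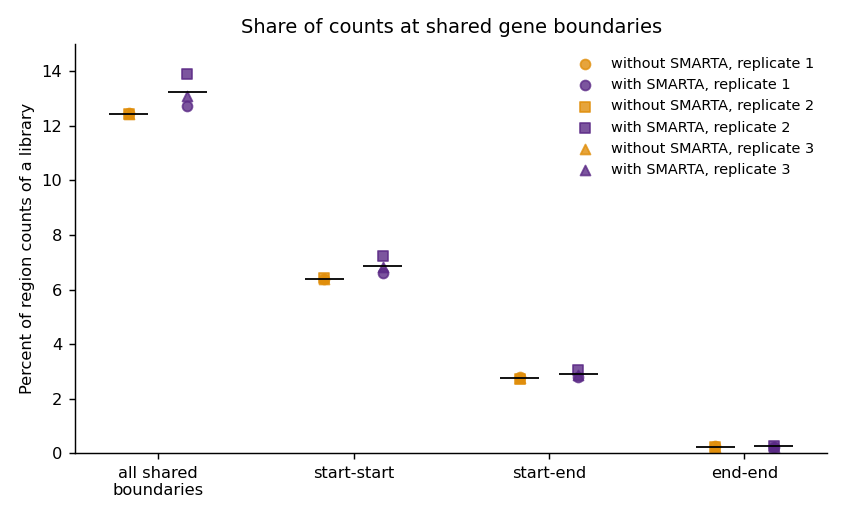
Percent of a library's region counts that fall at shared gene boundaries (y axis) for all such regions and for 3 classes of them (x axis). Each symbol is a library and each line a mean of 3; with SMARTA cells the share at all shared boundaries spans 12.72% to 13.89%, above the 12.43% to 12.46% without.

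Tested with edgeR over all 74686 regions, 265 of the 3236 shared-boundary regions (8.19%) passed an adjusted p of 0.05, where 15.1% of all regions did. More opened than closed: 194 regions (5.995%) were more accessible with SMARTA cells, beside 4.68% of all regions, and 71 (2.19%) were less accessible, beside 10.4% of all regions. Gains were small and at very open sites, with a median log2 fold of 0.27 (0.18 to 1.33) at a median level of 6.47 log2 CPM, and 7 reached 2-fold. Losses were larger and at weakly open sites, with a median of -1.07 (-2.35 to -0.35) at 1.92 log2 CPM, and 39 of them reached 2-fold. This contrast is not particular to shared boundaries. Near a single gene boundary the medians were 0.31 at 6.085 log2 CPM for gains and -1.13 at 1.985 for losses. Over all regions they were 0.77 at 3.53 and -1.36 at 1.54.

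The opened count moved with the scaling of libraries more than the closed count. TMM, used here, applies a single factor to each library, and under it the median log2 fold of the shared-boundary regions was 0.11, against 0.01 over all regions. Under a scaling that lets the factor vary with accessibility (a loess curve), that median was 0.01 (0.02 over all regions). Then 55 regions opened (1.70%, beside 4.87% of all regions) and 87 closed (2.69%, beside 10.2%), so that the order of the counts turned. Of the 194 opened regions 44 also opened under loess scaling and 150 did not, while 62 of the 71 closed regions also closed. Leaving out a library moved both counts. The opened regions numbered 46, 61 and 31 without replicates 1, 2 and 3 of the SMARTA-free group, beside 1809, 1273 and 1224 of all 74686 regions. Without replicates 1, 2 and 3 with SMARTA cells they numbered 283, 137 and 109, beside 3142, 4259 and 1787 of all regions. In the main fit they were 194 beside 3497, and 19 stayed opened in each of the 6 fits. The closed regions numbered 40 and 39 when replicates 2 and 3 of the SMARTA-free group were left out, beside 4961 and 4850 of all regions. Without replicates 1, 2 and 3 with SMARTA cells they numbered 71, 82 and 29, beside 7211, 8410 and 4403 of all regions. Of the closed regions 27 stayed closed in each of the 6 fits.

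**Figure D2:**
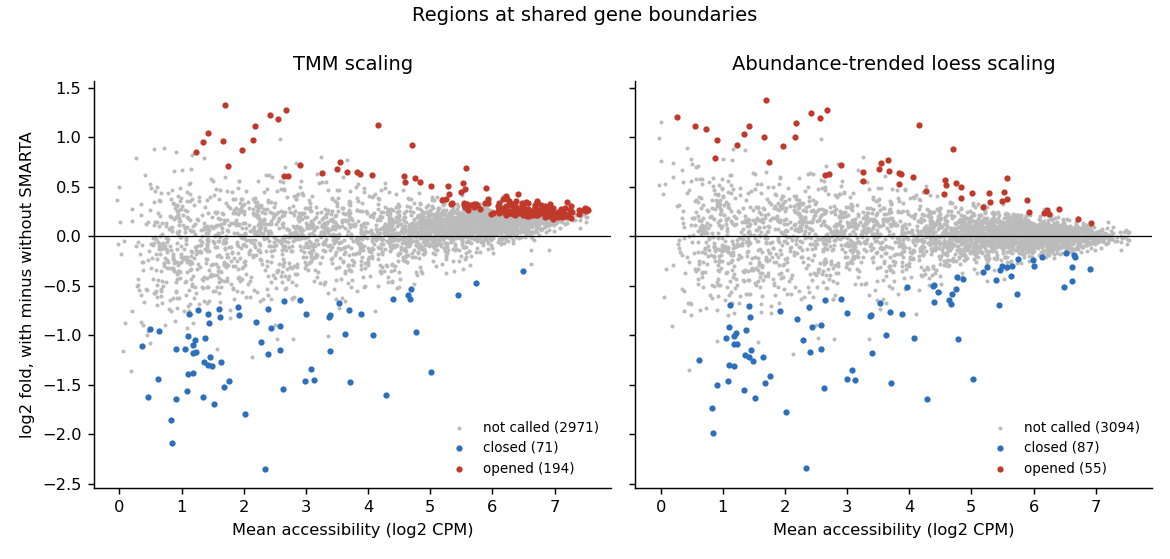
Log2 fold with SMARTA minus without (y axis) against mean accessibility in log2 CPM (x axis) for the 3236 shared-boundary regions, under TMM scaling and under loess scaling; each point is a region. Under TMM the 194 opened regions crowd at the accessible end, while under loess scaling 55 opened and 87 closed regions spread over the range.

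Calls were counted by how the genes of a set face each other. Over all regions 4.68% opened and 10.4% closed under TMM scaling, and 4.87% and 10.2% under loess scaling. Under TMM scaling, of the start-start regions 100 opened (8.29%) and 8 closed (0.663%), of the start-end regions 37 and 18 (4.55% and 2.21%), of the end-end regions 14 and 13 (4.01% and 3.72%), and of those with strand unknown 43 and 32. Under loess scaling the start-start class had 9 opened and 14 closed, the start-end class 14 and 24, and those with strand unknown 15 and 37. The end-end class changed least, to 17 and 12, and 13 of its 14 opened regions opened under loess scaling as well. At start-start regions that opened, the median log2 fold was 0.25 and 0 reached 2-fold, whereas the 14 end-end regions that opened had a median of 0.76. Without replicates 1, 2 and 3 of the SMARTA-free group the start-start class (1207 regions) had 16, 33 and 11 opened regions, and the end-end class (349) 5, 2 and 2. Of all 74686 regions 1809, 1273 and 1224 opened in these fits. Without replicates 1, 2 and 3 with SMARTA cells the start-start class had 151, 57 and 56 opened regions and the end-end class 10, 18 and 4. Of all regions 3142, 4259 and 1787 opened in these fits. Closed start-start regions numbered 5 and 2 when replicate 3 of the SMARTA-free group or replicate 3 with SMARTA cells was left out. Closed end-end regions numbered 6 and 7 without replicates 2 and 3 of the SMARTA-free group and 5 without replicate 3 with SMARTA cells. Of all regions 4961 and 4850 closed without replicates 2 and 3 of the SMARTA-free group, and 4403 without replicate 3 with SMARTA cells.

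**Figure D3:**
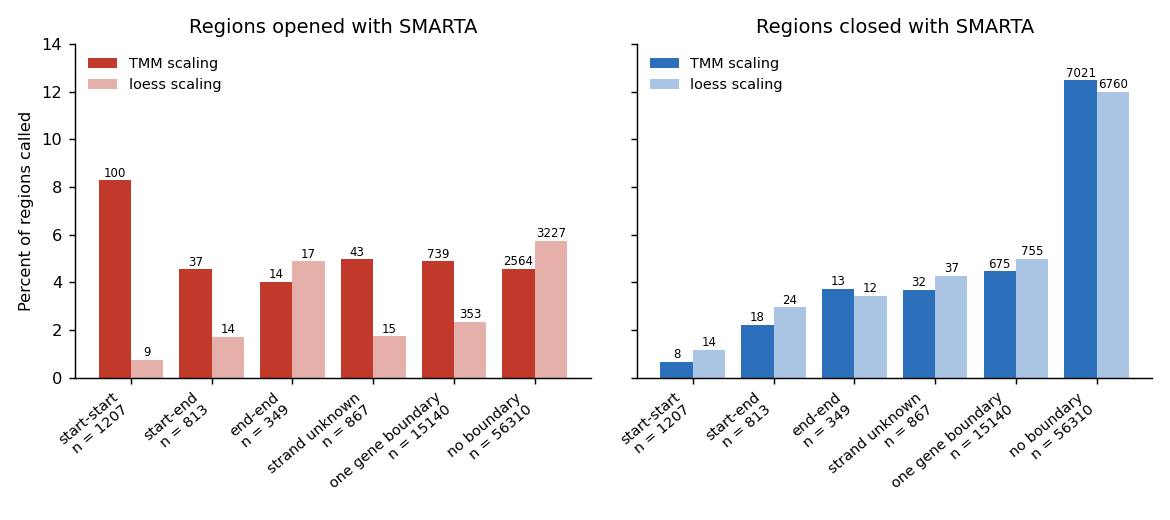
Percent of regions opened (left) and closed (right) with SMARTA cells (y axis, from 0) by class of boundary (x axis), under TMM scaling (solid bars) and loess scaling (pale bars), with the number of regions above each bar. Start-start regions have the highest opened share under TMM, 8.29%, and 0.746% under loess scaling.

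Calls were also set beside those at boundaries of a single gene within classes of accessibility. In the highest of the 5 accessibility classes 171 of 2019 shared-boundary regions opened (8.47%) and 10 closed (0.495%), against 582 of 6804 (8.55%) and 84 (1.24%) near a single gene. With loess scaling these were 24 and 34 at shared boundaries and 121 and 179 near a single gene. In the middle class 8 of 295 shared-boundary regions opened (2.71%) and 13 closed (4.41%), against 49 of 2169 (2.26%) and 189 (8.71%) near a single gene. In the lowest class 0 of 156 shared-boundary regions opened (under edgeR with TMM) and 9 closed (5.77%), against 10 of 1347 (0.742%) and 119 (8.83%) near a single gene, and under loess scaling 4 and 4 at shared boundaries against 40 and 80. For paired starts on opposite strands, 22 of 137 regions (16.1%) with more than 250 and up to 1000 bases between the starts opened, against 43 of 507 (8.48%) at up to 250 bases, 28 of 420 (6.67%) where the genes overlap and 6 of 91 (6.59%) beyond 1000. Under loess scaling these were 2, 4, 3 and 0. No test was made between these classes.

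Folds were also set against the base composition of promoters. Among 1691 shared-boundary regions that overlap a promoter window, split into 4 classes by GC content, the median log2 fold was 0.13, 0.13, 0.13 and 0.13 from the lowest class (31.7% to 56.7%) to the highest (67.2% to 83.7%), and 0.03, 0.01, 0.01 and -0.01 under loess scaling. Opened regions made up 5.47%, 8.01%, 8.96% and 9.13% of these classes, whose median level was 5.32, 5.67, 5.84 and 5.84 log2 CPM. The GC box was in 77.5% of the 187 windows at opened regions and in 69.0% of the 2047 at regions not called, and the CCAAT box in 50.3% and 40.6%. The ETS motif was in 28.3% and 27.8%, the cyclic AMP response element in 5.88% and 3.91% and the NF-kB motif in 0.535% and 0.293%. Shares at opened regions were lower for the TATA box (3.21% and 5.13%) and the YY1 (5.88% and 7.18%) and NFAT (4.28% and 5.18%) motifs. The AP-1 motif had about the same share (3.74% and 3.91%). At opened regions these shares rest on 6, 11, 8 and 7 windows, in that order. Of the 12 windows at regions that also opened under loess scaling, 8 held a GC box and 3 a CCAAT box. Of the 14 windows at closed regions, 10 held a GC box and 6 a CCAAT box. Windows of paired genes share bases, and no test was made between these groups of windows.

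Among opened regions, the smallest p was near the 3′ ends of Dpep1, a membrane dipeptidase that cleaves leukotriene D4, and Chmp1a, a subunit of the ESCRT-III membrane-scission complex (chr8:123203567-123203967). Accessibility there was 4.20, 4.27 and 4.27 log2 CPM without and 5.09, 5.31 and 5.09 with SMARTA cells, a log2 fold of 0.93 ± 0.12 SE (edgeR adjusted p = 0.0010). At Rpl29, a ribosomal protein, and Acy1, an aminoacylase (chr9:106430734-106431134), it was 3.37, 3.61 and 3.79 without and 4.63, 4.81 and 4.73 with (1.13 ± 0.16, edgeR adjusted p = 0.0014). In each case all libraries with SMARTA cells lay above all without. Such separation follows from the choice by p: the groups did not overlap at 193 of the 194 opened and 71 of the 71 closed regions.

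The region with the third smallest p covers the start of Ltb4r1, the high-affinity receptor for the chemoattractant leukotriene B4, whose window is printed above, and lies 1609 bases from Ltb4r2, the low-affinity receptor (chr14:55765675-55766075). It stood at 1.858, 1.812 and 1.799 log2 CPM without and 3.09, 3.02 and 2.98 with SMARTA cells, a fold of 1.22 ± 0.18 (edgeR adjusted p = 0.0017). The replicates of each group lay close together, and the authors' lists have a peak there in 0 of 3 libraries without and 3 of 3 with SMARTA cells. Ctla2a encodes an inhibitor of cathepsin-like proteases found in activated T cells. The region over its start (chr13:60936468-60936868), shared with the placental gene Tpbpa, went from 5.07, 5.41 and 5.22 to 5.91, 5.77 and 6.07 log2 CPM (0.69 ± 0.11, edgeR adjusted p = 0.0028). At Arf5, a small GTPase of the Golgi, and Fscn3, a fascin of the testis, the fold was 1.11 ± 0.22, again with peaks in 0 of 3 libraries without and 3 of 3 with SMARTA cells. That pattern of peaks holds at 12 of the 3236 shared-boundary regions, 58 of 15140 near a single gene and 525 of 56310 near none.

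Low-level regions in the extended MHC region of chromosome 17 opened as well. At 2410137M14Rik and H2-M5, a class I-like gene, values were 2.11, 1.93 and 1.93 without and 3.58, 2.87 and 2.92 log2 CPM with SMARTA cells (1.19 ± 0.23, edgeR adjusted p = 0.0080). At the 3′ ends of Zfp57, a keeper of genomic imprints, and Mog, a myelin protein, they were 2.04, 2.07 and 2.12 without and 3.56, 2.68 and 3.58 with (1.28 ± 0.25). Replicate 2 with SMARTA cells was the lowest of its group at each, and the groups stayed apart, as they did at nearly all called regions.

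Others of the 12 opened regions with the smallest p were at highly open promoters and gained little. At Myo9b, an unconventional myosin, and Haus8, a subunit of the spindle complex augmin, the shared promoter printed above rose from 6.53, 6.57 and 6.55 to 6.81, 7.002 and 6.87 log2 CPM (0.35 ± 0.06, edgeR adjusted p = 0.0054). At Dnaja1, a co-chaperone of Hsp70, paired with the DNA repair gene Aptx, it rose from 6.72, 6.78 and 6.78 to 7.002, 7.17 and 7.08 (0.32 ± 0.06). The folds were 0.43 ± 0.08 at Arsg, a lysosomal sulfatase, and the transporter Slc16a6 and 0.31 ± 0.06 at Zfp654 and Cggbp1, which binds CGG repeats. All 12 passed in each fit without a library, and 11 passed under loess scaling. Zfp654/Cggbp1 did not (0.10, edgeR adjusted p = 0.20), and the folds at Myo9b/Haus8 and Aptx/Dnaja1 came to 0.17 and 0.14.

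**Figure D4:**
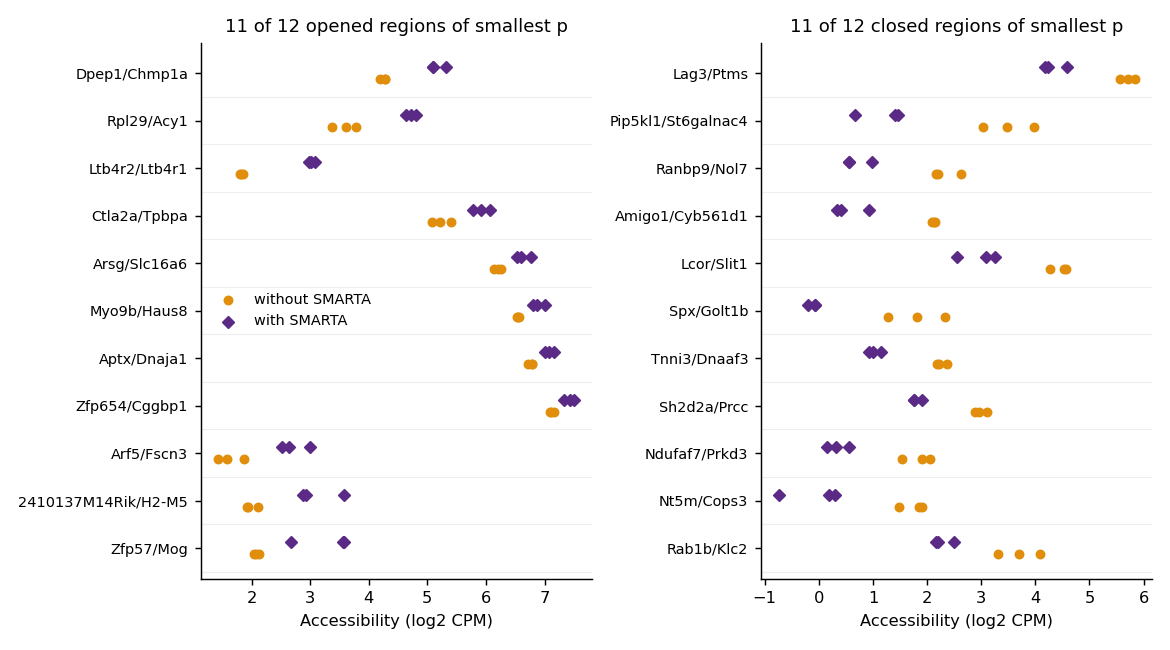
Accessibility in log2 CPM (x axis) of each library at 11 of the 12 opened (left) and 11 of the 12 closed (right) shared-boundary regions with the smallest p, named by their genes (y axis); circles are the 3 libraries without and diamonds the 3 with SMARTA cells. Log2 folds run from 0.31 at Zfp654/Cggbp1 to 1.28 at Zfp57/Mog on the left. On the right they run from -1.19 at Sh2d2a/Prcc to -2.35 at Pip5kl1/St6galnac4. The groups stand apart in every row, which follows from the choice by smallest p in these libraries.

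Among closed regions, the smallest p was at Lag3, an inhibitory receptor of exhausted T cells, and Ptms, which encodes parathymosin (chr6:124911545-124911945; 489 bases from a boundary of Lag3 and 1730 from one of Ptms). Accessibility was 5.57, 5.84 and 5.71 log2 CPM without and 4.58, 4.18 and 4.23 with SMARTA cells, a log2 fold of -1.37 ± 0.13 (edgeR adjusted p = 0.00031). This was the most accessible of the 12 closed regions with the smallest p, and all 6 libraries had a peak there. At 6 of these 12 the authors' lists have a peak in 3 of 3 libraries without and 0 of 3 with SMARTA cells. That pattern holds at 27 of the 3236 shared-boundary regions, 231 of 15140 near a single gene and 2422 of 56310 near none. The 12 were chosen by p in the same libraries, so their peaks are no separate evidence.

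The largest loss by size was near Pip5kl1, related to lipid kinases, and St6galnac4, a sialyltransferase (chr2:32585303-32585703), from 3.03, 3.97 and 3.48 to 1.40, 0.673 and 1.46 log2 CPM (-2.35 ± 0.30, edgeR adjusted p = 0.00090). At Spx, the gene of the peptide hormone spexin, and Golt1b, of Golgi transport, values went from 1.28, 2.33 and 1.82 to -0.07, -0.20 and -0.07 (-2.09 ± 0.31), and at Nt5m, a mitochondrial nucleotidase, and Cops3, a subunit of the COP9 signalosome, from 1.90, 1.84 and 1.47 to -0.739, 0.302 and 0.186 (-1.85 ± 0.30). None of the authors' peak lists with SMARTA cells holds a peak at these 3 regions. Nt5m/Cops3 is the start-start region among the 12, and it lies 1831 and 1533 bases from the nearest boundaries of those genes, outside the promoter windows.

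Near Sh2d2a, which encodes the T cell adapter TSAd, and Prcc (chr3:87856777-87857177) accessibility was 2.96, 2.89 and 3.10 log2 CPM without and 1.77, 1.91 and 1.76 with SMARTA cells (-1.19 ± 0.18, edgeR adjusted p = 0.0023). At Ndufaf7, an assembly factor of respiratory complex I, and Prkd3, a protein kinase D, the fold was -1.56 ± 0.24. At Rab1b, a GTPase of transport to the Golgi, and Klc2, a kinesin light chain, it was -1.46 ± 0.24, and at Lcor, a nuclear receptor corepressor, and the guidance ligand Slit1 it was -1.47 ± 0.21. Further closed regions of the 12 were at Ranbp9/Nol7 (-1.69), Amigo1/Cyb561d1 (-1.62) and Tnni3/Dnaaf3 (-1.26). All 12 passed in each fit without a library and under loess scaling.

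Some gene sets had several called regions. Of the 2741 gene sets 438 hold 2 or more regions. A called region lies in 259 sets, where 8.19% of shared-boundary regions and 15.1% of all regions were called. Only 2 sets hold 2 or more opened regions and 4 hold 2 or more closed ones. No other set holds several called regions, so the 0 sets called in both directions say little about agreement within sets. Ranbp9/Nol7, Btbd17/Kif19a and Svopl/Atp6v0a4 each had 2 closed regions, and Fbxw4/Dpcd and Tmem69/Gpbp1l1 each had 2 opened ones. The second Ranbp9/Nol7 region closed by -1.14, in 2 of the 6 fits without a library.

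The 5 most accessible of the 3236 shared-boundary regions were at start-start pairs. At 1700056E22Rik and Dusp10, a phosphatase of stress-activated kinases, whose windows are printed above, values were 7.36, 7.46 and 7.34 log2 CPM without and 7.65, 7.72 and 7.54 with SMARTA cells (0.25 ± 0.06, edgeR adjusted p = 0.016). Fam72a/Srgap2 (0.27) and Dcaf6/Mpc2 (0.27) also opened, and LOC114841036/Fkbp2 (0.19, edgeR adjusted p = 0.055) and Pdcd10/Serpini1 (0.20, edgeR adjusted p = 0.058) did not pass. The 3 calls were lost without replicate 1 or 3 of the SMARTA-free group. Under loess scaling the 5 folds ran from -0.04 to 0.05 and 0 passed (edgeR).

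Immune genes were read from 7 lists, and the region with the smallest p was taken for each gene with a shared boundary. Of these 31 regions 5 closed, 2 opened and 24 did not pass, where 10.4% of all regions closed and 4.68% opened. Taking the smallest p for each gene raises such counts, so they are a description. Besides Lag3, closed regions lay at an exhaustion factor, at chemokine and cytokine genes and at a peptide-loading locus, and the opened ones at an interferon-stimulated pair and at a chaperone of MHC class I.

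**Figure D5:**
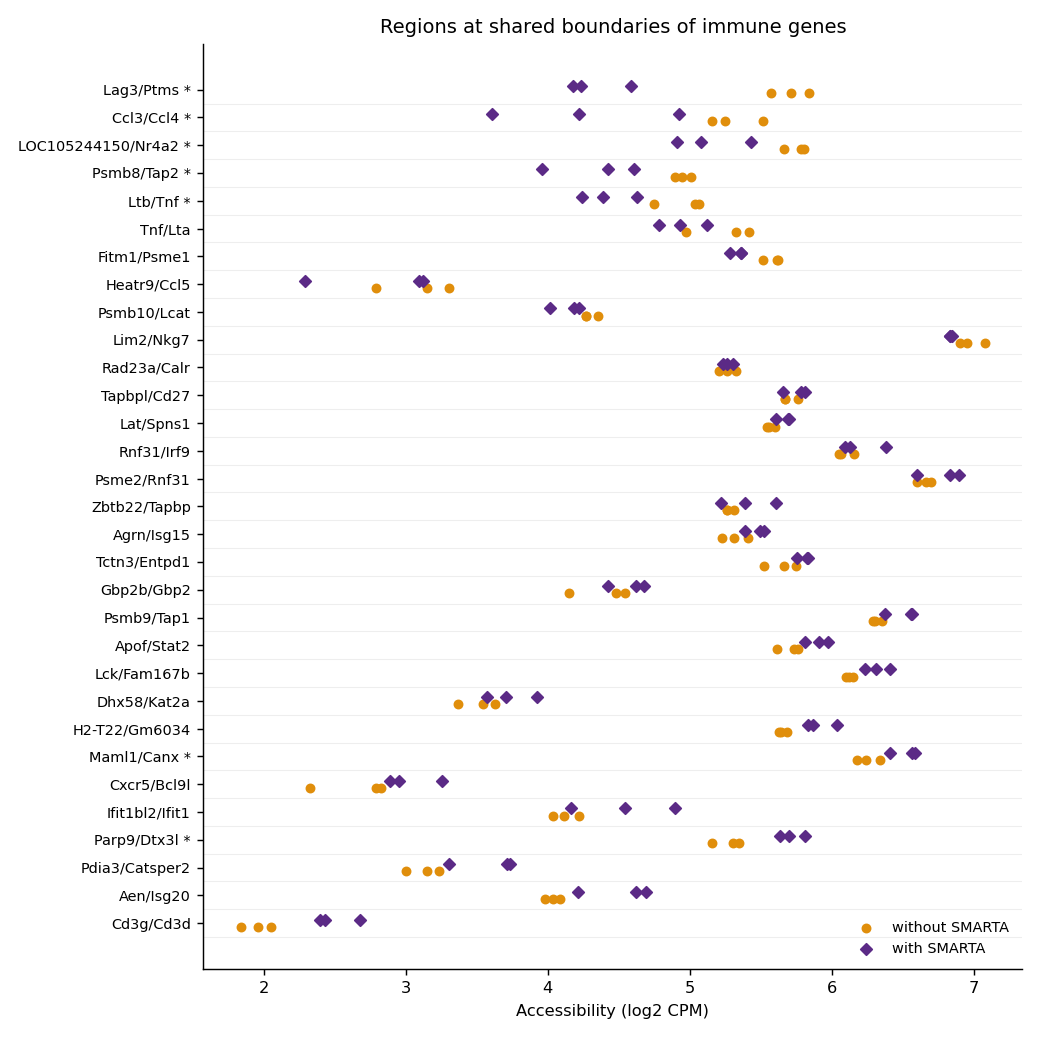
Accessibility in log2 CPM (x axis) of each library at the 31 shared-boundary regions of listed immune genes, ordered by log2 fold (y axis, most negative at the top); circles are the 3 libraries without and diamonds the 3 with SMARTA cells, and an asterisk marks the 7 regions past an adjusted p of 0.05. Ccl3/Ccl4 shows the widest spread with SMARTA cells, 3.61 to 4.92.

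Nr4a2, a nuclear receptor of exhausted T cells, was the only one of 16 exhaustion factors with a shared-boundary region, next to the uncharacterised LOC105244150 (chr2:57123972-57124372). The region covers the start of Nr4a2 and overlaps the GC-rich window printed above. It went from 5.66, 5.80 and 5.78 to 5.43, 4.91 and 5.08 log2 CPM (-0.60 ± 0.13, edgeR adjusted p = 0.011), and did not pass without replicate 3 with SMARTA cells (edgeR adjusted p = 0.053). Of 16 inhibitory receptors and ligands 2 had such regions: Lag3, which closed, and Entpd1, which encodes the ectonucleotidase CD39 and stood at 5.52, 5.75 and 5.66 without and 5.83, 5.83 and 5.75 with SMARTA cells (edgeR adjusted p = 0.24).

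Cytotoxic molecules, cytokines and chemokines had 7 shared-boundary regions, of which 2 closed and 0 opened (10.4% and 4.68% over all regions). Ccl3 and Ccl4 encode inflammatory chemokines, and the region over the Ccl3 start (chr11:83649339-83649739) went from 5.24, 5.51 and 5.16 to 4.92, 3.61 and 4.22 log2 CPM (-0.96 ± 0.26, edgeR adjusted p = 0.033). Between the 3′ ends of Ltb and Tnf, which encode lymphotoxin beta and tumor necrosis factor (chr17:35197152-35197552), it went from 4.75, 5.04 and 5.07 to 4.63, 4.24 and 4.39 (-0.53 ± 0.15, edgeR adjusted p = 0.035). Either call stood in only 2 of the 6 fits without a library. Ccl3/Ccl4 was lost without any library of the SMARTA-free group or without replicate 3 with SMARTA cells, and Ltb/Tnf without replicates 2 or 3 of either group. The neighbouring region at Tnf and Lta, the gene of lymphotoxin alpha, did not pass (-0.30, edgeR adjusted p = 0.18), nor did Ccl5, also a chemokine gene (-0.21). At Nkg7, a granule protein of killer cells, values were 6.90, 7.08 and 6.95 without and 6.84, 6.83 and 6.83 with SMARTA cells. This difference passed under loess scaling alone among the scalings (-0.33, edgeR adjusted p = 0.0032, against -0.14 and 0.14 under TMM). Another Nkg7 region, shared with Cldnd2, went the other way and did not pass (0.22, edgeR adjusted p = 0.22, and 0.11 under loess scaling).

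The T cell receptor complex and its proximal signalling had 7 regions at 5 genes, and 0 passed in either direction under edgeR with TMM or loess scaling. Cd3g and Cd3d, chains of CD3, are read from a shared interval. The region there with the smallest p stood at 1.84, 1.96 and 2.05 without and 2.43, 2.68 and 2.39 log2 CPM with SMARTA cells (0.56 ± 0.19, edgeR adjusted p = 0.071), and a stronger one had a fold of 0.24. The kinase Lck (0.20, edgeR adjusted p = 0.085), the adapter Lat (0.10) and the costimulatory receptor Cd27 (0.05) did not pass. Of the naive, memory and progenitor genes Cxcr5 had 2 regions, with folds of 0.37 and 0.27 that did not pass.

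Antigen processing genes had the most shared boundaries of the immune lists, 15 regions at 12 of 20 genes, of which 1 opened and 1 closed (4.68% and 10.4% over all regions). At Psmb8, an immunoproteasome subunit, and Tap2, a peptide transporter (chr17:34203291-34203691), accessibility went from 5.01, 4.89 and 4.95 to 4.42, 3.96 and 4.60 log2 CPM (-0.59 ± 0.16, edgeR adjusted p = 0.035). The partner promoter of Psmb9 and Tap1, read from a common stretch, did not pass, with 6.35, 6.29 and 6.30 without and 6.37, 6.56 and 6.57 with SMARTA cells (0.19, edgeR adjusted p = 0.10). Canx, which encodes the chaperone calnexin, opened with its neighbour Maml1 (0.27 ± 0.07, edgeR adjusted p = 0.036), a call lost under loess scaling (0.11, edgeR adjusted p = 0.26) and kept only without replicate 1 with SMARTA cells. Psmb8/Tap2 passed in 2 of the 6 fits, those without replicates 2 or 3 with SMARTA cells. Psme1, a proteasome activator subunit, passed downward under loess scaling (-0.34, edgeR adjusted p = 0.010) and total-count scaling, and not under TMM (-0.25, edgeR adjusted p = 0.070), and its partner subunit Psme2 in neither (0.13 and -0.04). Tapbp, Psmb10, H2-T22, Calr and Pdia3 had folds from -0.16 to 0.47 that did not pass.

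Interferon-stimulated genes had 10 regions at 9 of 29 genes, 1 of them opened (4.68% over all regions). Parp9 and Dtx3l encode partners in a complex that acts in interferon responses and DNA damage, and the region near both (chr16:35939631-35940031) went from 5.16, 5.30 and 5.35 to 5.64, 5.70 and 5.81 log2 CPM (0.45 ± 0.09, edgeR adjusted p = 0.0090). It passed in each fit without a library and under loess scaling (0.35). Isg20, an exonuclease, passed upward under loess scaling (0.46, edgeR adjusted p = 0.042; 0.49 and 0.065 under TMM). The signalling genes Stat2 (0.19) and Irf9 (0.12) and the effectors Isg15 (0.15), Ifit1 (0.45), Gbp2 (0.18) and Dhx58 (0.23) did not pass.

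Of all regions tested, 4.68% opened and 10.4% closed under TMM scaling and 4.87% and 10.2% under loess scaling, which stand beside the counts of the housekeeping lists. DNA replication and repair genes had 37 shared-boundary regions, with 4 opened and 1 closed. Pcna, the sliding clamp (0.25), Atm, the kinase of the double-strand break response (0.24), and Msh3, of mismatch repair (0.23), were among those that opened, and 0 regions of the list opened under loess scaling. These calls passed in 3, 2 and 3 of the 6 fits without a library, and each was lost without replicate 1 or 3 of the SMARTA-free group. Nbn, a subunit of the MRN break sensor, had a weakly open region shared with Osgin2 that closed from 1.77 ± 0.21 to 0.436 ± 0.37 log2 CPM (SD, n = 3 each; -1.39 ± 0.26, edgeR adjusted p = 0.0055) in every fit without a library. Chaperones had 19 regions with 3 opened, at Dnaja1, Cct7 (0.23) and Cct3 (0.19), the latter both subunits of the TRiC chaperonin, and the calls at Cct7 and Cct3 passed in 3 and 1 of the 6 fits.

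Mitochondrial ribosomal proteins had 6 opened and 0 closed of 52 regions (4.68% and 10.4% over all regions), and 2 opened under loess scaling (4.87% over all regions). Mrpl34, next to Abhd8, was the first of them, from 6.02 ± 0.05 to 6.42 ± 0.18 log2 CPM (0.41 ± 0.09, edgeR adjusted p = 0.013), a call lost without replicate 3 of the SMARTA-free group. That region lies 1555 bases from a boundary of Abhd8 and 1774 from one of Mrpl34. The region that overlaps a boundary of each gene did not pass (0.21, edgeR adjusted p = 0.051). Mrpl38, Mrps7, Mrpl41, Mrpl48 and Mrpl40 gained 0.24 to 0.37, and passed in 3, 4, 2, 1 and 1 of the 6 fits without a library. All 5 were lost without replicate 3 of the SMARTA-free group. Cytosolic ribosomal proteins had 2 opened and 0 closed of 46, at Rpl29 and Rpl36al. Zinc finger genes had 7 opened and 0 closed of 84 regions (4 and 3 under loess scaling), solute carriers 7 and 1 of 103 (1 and 3), proteasome subunits 0 and 1 of 20, and replication-dependent histones, whose clusters are dense in paired promoters, 0 and 0 of 22, where 4.68% of all regions opened and 10.4% closed (4.87% and 10.2% under loess scaling). The median log2 fold of these 8 lists lay between 0.01 in the histones and 0.18 in the chaperones, beside 0.11 over all shared-boundary regions and 0.01 over all regions tested.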

How the data were processed

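The deposited table gives raw read counts per region and library, deposited by the authors without normalization, on GRCm38. Each library also has the authors' own peak list, with a fold enrichment, a score and −log10 p and q per peak, used only to say whether a region overlaps a peak and to rank peaks. Per the submitters' processing notes, the tools, with no roles given, were MACS2 2.1.1, DiffBind 3.4.11, BWA 0.7.17, Picard 2.18.9 and SAMtools 1.8. The sources used here do not give duplicate removal or the transposase shift; leftover duplicates would inflate counts. Gene boundaries were read from RefSeq (GRCm38.p6), with strand from its promoter windows.

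Counts were tested with edgeR 4.0.16 under R 4.3.3 (TMM, filterByExpr, which removed 0 regions, glmQLFit and glmQLFTest on group alone, Benjamini-Hochberg over 74686 regions, threshold 0.05), checked on simulated counts. A fold is with minus without SMARTA, its SE the fold over the root of F. Members, lists and tests were chosen with earlier results of these data known. Named regions are the 12 opened and 12 closed with the smallest p, the 5 most accessible and, per gene of 7 immune lists, its region with the smallest p. Alternatives were RLE, total-count and loess scaling (span 0.3), DESeq2 1.42.0, other filters, thresholds and distances, a replicate block and leaving out each library. No genome sequence was used, so regions outside promoter windows have no sequence here. A few regions and genes are not reported here.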

Additional observations from a re-analysis of the deposited data

How the results depend on the processing

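The number of opened shared-boundary regions, 194, moved with most settings: 86 under total-count scaling, 55 under loess scaling, 74 with DESeq2, 15 at an adjusted p of 0.01, 113 with boundaries within 0.5 kb, and 31 to 283 when a library was left out. Over all 74686 regions 3497 opened in the main fit, 2615 under total-count scaling, 3635 under loess scaling and 3543 with DESeq2. The 71 closed regions became 25 at an adjusted p of 0.01, 28 within 1 kb, 16 within 0.5 kb and 29 to 82 when a library was left out; the other settings kept both within 1.5 times. The difference in the share of counts, 0.792 percentage points, ran from 0.465 to 1.05 when a library was left out. With the replicate number as a replicate block 232 opened and 64 closed. Deviations of same-numbered libraries from their group means correlated at r = -0.02, -0.08 and 0.08, and those of differently numbered ones at -0.107 to 0.086. With 3 libraries per group these values cannot decide whether the numbers pair the libraries, and the labels do not say. The block ended the call at Ltb/Tnf (edgeR adjusted p = 0.066). Of the 59 named regions, 51 kept their side of the threshold under loess scaling, 54 with DESeq2, 58 under RLE and 56 under total-count scaling, and 0 changed sign while past the threshold. The cause of these moves was not tested. Counts within classes of boundaries were added after seeing the data.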

Other observations

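The following called shared-boundary regions outside the named ones were chosen after their values were seen and share no list. Closed regions lay at Tnfrsf4, the costimulatory receptor OX40, with Sdf4 (log2 fold -1.46, edgeR adjusted p = 0.0054), at Bcl2l11, the gene of the death protein BIM, with Acoxl (-0.35, edgeR adjusted p = 0.0074), and at Nckap1l, of the actin-regulating WAVE complex in blood cells, with Pde1b (-1.18, edgeR adjusted p = 0.0055), each in all 6 fits without a library. The closed regions at S100a4/S100a5 (-0.91), at the thymidine kinase gene Tk1 with Afmid (-0.75) and at the histone demethylase gene Kdm6b with Dnah2 (-0.86) passed in 5, 2 and 3 of those fits. Opened regions that also opened under loess scaling lay at Il2rg, the common cytokine receptor chain, with Gm614 (0.97, edgeR adjusted p = 0.013), at the AP-1 gene Jund with Iqcn (0.51, edgeR adjusted p = 0.019), at Ppp1r15a, a regulator of the stress response, with Plekha4 (0.49), and at the autophagy genes Map1lc3a with Pigu (0.54) and Map1lc3b with Zcchc14 (0.61). They passed in 4, 3, 3, 5 and 1 of the fits without a library.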
